A study of Canis lupus familiaris with 12 samples.

Results

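The cyclin, cyclin-dependent kinase (CDK), CDK inhibitor, MCM, E2F, CDC6, CDC7, CDC20, CDC25, PLK, BUB, AURK, MAD2L, PCNA, RFC and ORC gene families were followed in MDCK cells that carry Snail, Slug or E47. Genes were taken by the start of their symbol, among probes with exactly 1 gene symbol, leaving out CCND1 and CDKN1A. This gave 56 of the 4325 genes with 1 symbol, read by 131 probes of 70 cDNA clones, and 13 of the 56 had more than 1 clone. No probe with 1 symbol began with ORC, CDC20 or CCNE. All 56 symbols are also symbols of dog genes in RefSeq. The name rule also took in CDKN3, a phosphatase, and 4 CDK-named genes that encode no kinase (CDK2AP2, CDK5R2, CDK5RAP2 and CDK5RAP3).

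MDCK is an established dog kidney epithelial cell line. Cells transfected with Snail, with Slug or with E47 were each compared with MDCK-CMV control cells on 2-colour arrays of human cDNA clones. Each transfectant had 2 numbered samples, hybridised once with the transfectant titled Cy5 and once with it titled Cy3, giving 4 arrays per transfectant and 12 in all; the control was on every array and was not hybridised against itself. The sources used here do not give the promoter of the constructs, the culture conditions, whether a transfectant was a single clone or whether the numbered samples were separate cultures. The p-values therefore measure the spread between these samples, which may be technical.

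Cells divide by passing from growth (G1) into DNA synthesis (S), a gap (G2) and mitosis (M). Cyclins switch CDKs on and CDK inhibitors switch them off; active CDKs release E2F factors from retinoblastoma proteins, and E2F factors drive genes of DNA synthesis. MCM helicase is loaded on origins with the help of CDC6 and fired with the help of CDC7, PCNA and its loader RFC hold the polymerases on DNA, and the polo, aurora, BUB and MAD2 proteins run mitosis and its checkpoint. Snail and Slug are zinc finger factors and E47 a helix-loop-helix factor, all known as repressors of the E-cadherin gene CDH1.

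The values are log2 ratios between the channels of an array. The sources do not say which channel is the numerator, and the signs did not follow the dyes in the titles. Correlations between arrays were taken across genes with 1 symbol, leaving out the cell cycle genes and CDH1. Arrays of a transfectant that the sign rule keeps on opposite sides had a mean r of -0.57 over 11 pairs. Those it keeps on the same side had 0.56 over 7 pairs. Of the 30 pairs of arrays with the same titled dye, 11 had an r under -0.3, down to -0.67. Both Snail 2 arrays, both Slug 1 arrays and the E47 2 array titled Cy5 were therefore multiplied by -1, with each transfectant set so that CDH1 lay below the control. Relative signs of arrays within each transfectant, computed without the cell cycle genes and without CDH1, matched this turning for 12 of 12 arrays. The overall sign of each transfectant was taken from the rule, so the CDH1 choice was not tested by this. All directions below are assumed in this sense; with the sign of a transfectant turned, each "higher" against the control becomes "lower". Whether genes of 1 transfectant lay on the same side does not depend on the CDH1 choice, but it does depend on the turning of its 4 arrays.

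The arrays held values for 10654 to 12982 of 13056 probes. Whether each human clone reads its dog gene, or a relative of it as well, was not tested. Samples 1 and 2 of a transfectant correlated across the cell cycle genes with r = 0.74 in Snail (55 genes), 0.79 in Slug (55) and 0.84 in E47 (54), with median absolute differences of 0.2, 0.221 and 0.182 on the log2 scale; genes are not independent replicates. In E47 an array stood apart on the cell cycle genes. The E47 1 array titled Cy3 was the farthest from the median of the 4 E47 arrays for 28 of 54 cell cycle genes (51.9%), against 33.8% of all genes. The E47 1 array titled Cy5 was the farthest for 25.9% of the cell cycle genes and, nearly as often as the Cy3 array, for 32.7% of all genes. The Slug 2 array titled Cy3 was the farthest for 21 of 55 (38.2%), against 34.1% of all genes. Calls that change when either array is left out, an alternative chosen after seeing the data, are given beside the gene. Both arrays were picked for lying farthest on the cell cycle genes, so calls gained without them are no support for a change. Ratios hold no level, so the epithelial identity of the cells could not be read from marker levels. Kidney epithelium markers past the threshold were lower for 2 of 6 in Snail, 2 of 7 in Slug and 2 of 6 in E47, each time with CDH1, which the sign rule fixes. Fibroblast markers were higher for 2 of 3, 2 of 3 and 1 of 3, leukocyte markers lower for 0 of 4, 2 of 4 and 0 of 4, and endothelial markers higher for 0 of 5, 2 of 6 and 0 of 6; their part in the results was not tested. In RNA of whole cultures, fewer cells in a phase and less RNA per cell cannot be told apart.

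Cell cycle genes were called in both directions in each transfectant. A gene was called when its adjusted p was under 0.05 in a limma fit of all 3 transfectants with Benjamini-Hochberg adjustment over all genes tested; means below come with the SD of the 2 samples (n = 2). In the Snail transfectant 8 of 55 genes were called, 2 higher (CDC7, BUB1B) and 6 lower (MCM5, MAD2L2, MAD2L1, CDK2AP2, CCNB2, RFC5), where 7.22% of all genes tested were called, 2.15% higher and 5.07% lower. With each array centred on its median, 8 were again called, 3 higher and 5 lower (RFC5 lost, adjusted p = 0.0614, and CCNA2 gained). In the Slug transfectant 13 of 55 were called, 9 higher (E2F1, PLK1, AURKC, CDC25B, CDK2, E2F2, CCNG2, E2F4, CDK16) and 4 lower (BUB1, MAD2L1, MAD2L2, CCNH), where 21.8% of all genes were called, 12.2% higher and 9.62% lower. With all arrays scaled to 1 spread, 7 were called, 4 higher and 3 lower, beside 10.8% of all genes; CCNG2, E2F4, CDK16, CDK2, CCNH and CDC25B then missed the threshold, with adjusted p from 0.0524 to 0.0957. In the E47 transfectant 2 of 54 were called, CDK14 higher and CCNC lower, where 5.3% of all genes were called, 3.81% higher and 1.49% lower. As shares, 14.5%, 23.6% and 3.7% of the cell cycle genes were called, so the Slug and E47 shares lay near those of all genes. The median log2 ratio of the cell cycle genes was -0.14, 0.00 and -0.02, beside -0.05, 0.02 and 0.01 for all genes tested. All 3 comparisons share the MDCK-CMV control.

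Array by array, 29 of 55 cell cycle genes (52.7%) lay on 1 side of 0 on all 4 Snail arrays, beside 36.3% of all genes, and 20 of these 29 lay below. The count was 24 of 55 (43.6%) in Slug, beside 41.5%, with 14 above and 10 below. It was 17 of 54 (31.5%) in E47, beside 32.5%, with 6 above and 11 below. How all genes split above and below 0 was not counted. The arrays were not centred, and the median over all genes tested was -0.05 in Snail, 0.02 in Slug and 0.01 in E47. A surplus on 1 side can therefore not be read as a trait of the cell cycle genes. The calls rest on few samples, and those of AURKC, MAD2L2 and RFC5 each on 1 spot per array. Without Snail sample 1 MCM5 was the only Snail call left, and without Snail sample 2 there was none by limma, with 10 genes at an unadjusted p under 0.05. Without Slug sample 1 the Slug calls left were E2F1, PLK1 and BUB1, and without Slug sample 2 they were these 3 with AURKC, CDK2, MAD2L1 and MAD2L2, joined by CDK7 and CDK18. Without E47 sample 1 CDK14 was left, and without E47 sample 2 no call, with 3 genes at an unadjusted p under 0.05. Samples of the other transfectants share the estimate of spread: leaving out either of the E47 samples kept 5 Snail calls, and leaving out either of the Snail samples kept 1 E47 call (CDK14).

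**Figure D1:**
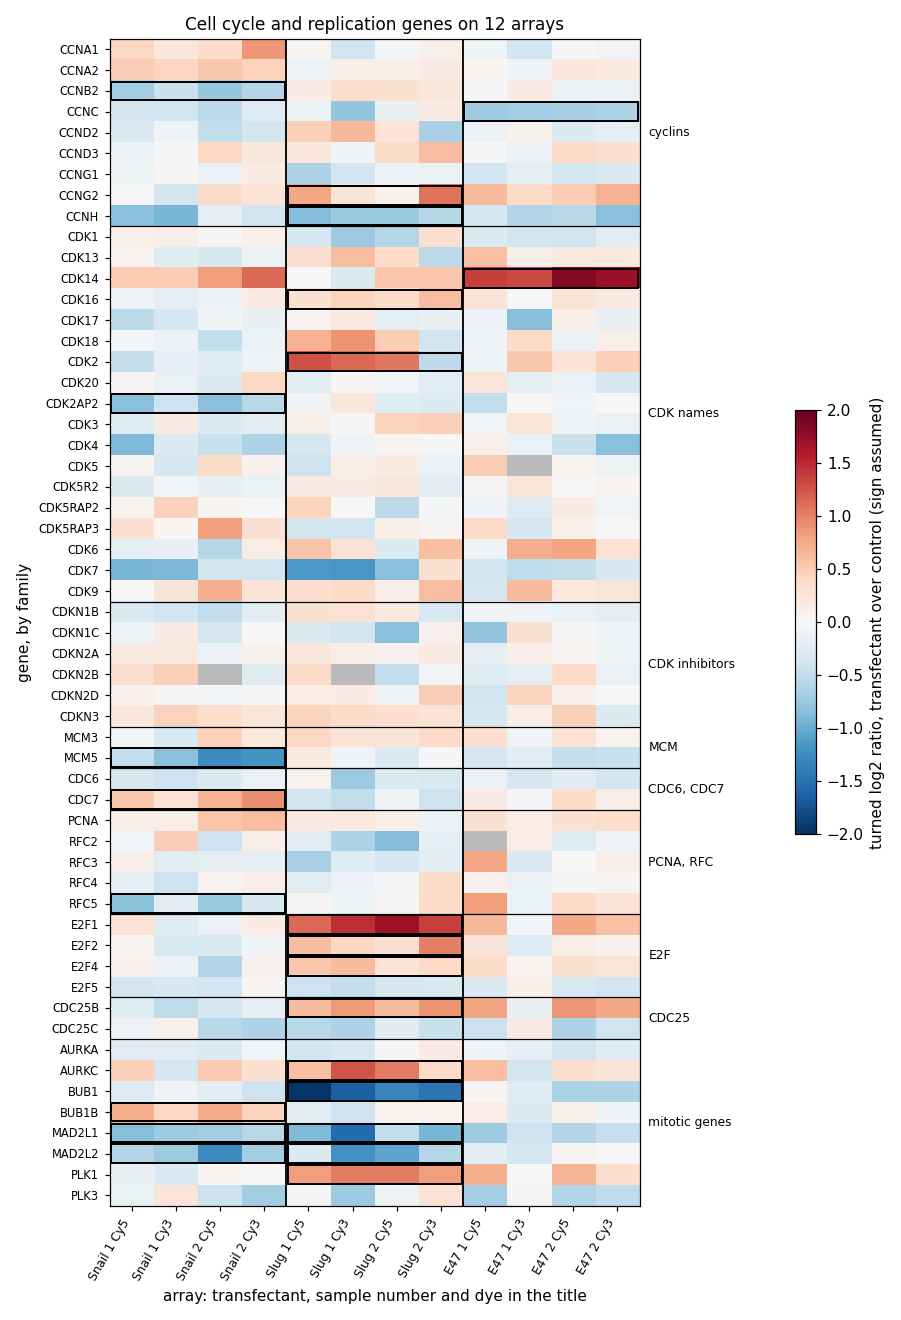
Log2 ratio (colour, from -2.0 in blue to 2.0 in red, sign assumed) of the 56 genes (rows, by family) on the 12 arrays (columns); grey cells hold no value and black frames mark genes with an adjusted p under 0.05 in that transfectant. E2F1 and PLK1 are red and BUB1 blue on all 4 Slug arrays, MAD2L1 is blue on all 12 arrays, and CDK14 is red on all 4 E47 arrays.

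E2F factors were called higher in the Slug transfectant for 3 of the 4 genes on the array, where 12.2% of all genes were higher. E2F1, an activator of S-phase genes, had log2 ratios of 1.14, 1.47, 1.69 and 1.36 on the Slug arrays, of 0.27, -0.24, -0.14 and 0.17 on the Snail arrays and of 0.67, -0.05, 0.75 and 0.58 on the E47 arrays. Every Slug array lay above every array of the other transfectants, the Snail arrays scattered around 0, and the low E47 value was the 1 titled Cy3 of sample 1. E2F1 rose in Slug by a mean of 1.41 ± 0.15 (2.67-fold, adjusted p = 8.78e-04). Its mean was 0.49 ± 0.25 in E47 (adjusted p = 0.0854) and 0.01 ± 0.00 in Snail (adjusted p = 0.972). Without the E47 1 Cy3 array the E47 mean was 0.67 and passed the test (adjusted p = 0.0150).

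E2F2, another activator, had 0.62, 0.42, 0.30 and 1.00 on the Slug arrays and rose by 0.59 ± 0.10 (1.50-fold, adjusted p = 0.0124), with its 2 clones at 0.504 and 0.668. E2F4, the E2F that mostly represses in resting cells, had 0.54, 0.63, 0.28 and 0.40 and rose by 0.46 ± 0.18 (1.38-fold, adjusted p = 0.0380). The Snail arrays of E2F2 reached 0.05 and those of E2F4 0.09 at most, so neither gene's Slug and Snail arrays overlapped. E2F5, the other repressor type on the array, lay at -0.41, -0.47, -0.32 and -0.31 in Slug, on the other side of 0 from the 3 that rose, with a mean of -0.38 ± 0.09 that missed the threshold (adjusted p = 0.0718). Without the Slug 2 Cy3 array E2F2 had 0.41 (adjusted p = 0.0543) and E2F4 0.43 (adjusted p = 0.0616), both past the threshold no longer. The E2F4 call was also lost without the E47 1 Cy3 array (adjusted p = 0.0545) and with scaled arrays (adjusted p = 0.0930). No E2F was called in Snail (0 of 4 by limma, 0 at an unadjusted p under 0.05) or in E47 (0 of 4, 1 at an unadjusted p under 0.05), where means ran from -0.25 to 0.01 and from -0.21 to 0.49.

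Among 9 cyclins, 1 fell in Snail (CCNB2), 1 rose (CCNG2) and 1 fell (CCNH) in Slug, and 1 fell in E47 (CCNC). The shares of all genes called were 7.22%, 21.8% and 5.3%. CCNB2, a B-type cyclin that carries CDK1 into mitosis, had -0.69, -0.45, -0.76 and -0.59 on the Snail arrays, 0.16, 0.35, 0.30 and 0.23 on the Slug arrays, and between -0.14 and 0.16 in E47. The Snail arrays were all below, and the Slug arrays all above, the control. CCNB2 fell in Snail by 0.62 ± 0.07 on the log2 scale (1.54-fold, adjusted p = 0.0206); its Slug mean of 0.26 ± 0.01 was not called (adjusted p = 0.161). The A-type cyclins lay on the other side in Snail. CCNA2, which acts in S phase and at entry to mitosis, had 0.49, 0.43, 0.54 and 0.46 and a mean of 0.48 ± 0.03 (adjusted p = 0.0572). CCNA1 had a mean of 0.47 ± 0.21 (adjusted p = 0.0786). Both missed the threshold although all 4 arrays were above 0.

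CCNH, the partner of CDK7 in the kinase that activates other CDKs, was below 0 on all 12 arrays. It had -0.86, -0.75, -0.75 and -0.57 in Slug, -0.83, -0.92, -0.18 and -0.37 in Snail and -0.35, -0.58, -0.55 and -0.84 in E47. It fell in Slug by 0.73 ± 0.10 on the log2 scale (1.66-fold, adjusted p = 0.0184; with scaled arrays -0.61 and adjusted p = 0.0676), and its means of -0.58 ± 0.43 in Snail (adjusted p = 0.0767) and -0.58 ± 0.17 in E47 (adjusted p = 0.0894) were not called. CCNC, which partners the kinase of the Mediator complex, had -0.72, -0.69, -0.66 and -0.62 in E47 and fell by 0.67 ± 0.04 (1.60-fold, adjusted p = 0.0327); both of its clones were below 0, at -0.795 and -0.552. The E47 arrays of CCNC lay below all Snail arrays (-0.36, -0.40, -0.53 and -0.26), and 1 Slug array reached -0.77.

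CCNG2, a cyclin linked to cell cycle arrest, had 0.78, 0.26, 0.08 and 1.09 in Slug and rose by 0.55 ± 0.05 (1.47-fold, adjusted p = 0.0309). The small SD hides a wide spread between the arrays of a sample, and without the Slug 2 Cy3 array the mean was 0.30 and not called (adjusted p = 0.240); with scaled arrays it was 0.46 (adjusted p = 0.0930). In E47 CCNG2 had 0.63, 0.39, 0.51 and 0.69, a narrower range, with a mean of 0.56 ± 0.06 (adjusted p = 0.0717), which passed without the E47 1 Cy3 array (0.61, adjusted p = 0.0344). The remaining cyclins were not called in any transfectant. CCND2 and CCND3, D-type cyclins of G1, had means of -0.30 and 0.13 in Snail, 0.19 and 0.28 in Slug and -0.12 and 0.14 in E47, and CCNG1, a p53 target, had -0.01, -0.31 and -0.31.

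Of the 18 CDK-named genes, 14 encode kinases. CDK14, a kinase of the cell membrane that pairs with cyclin Y and acts in Wnt signalling, showed the largest mean ratio of the 54 genes tested in E47. It had 1.39, 1.32, 1.84 and 1.73 on the E47 arrays, 0.50, 0.50, 0.83 and 1.13 in Snail and 0.00, -0.28, 0.55 and 0.56 in Slug. All E47 arrays lay above all others, and the Snail and Slug arrays overlapped at 0.50 to 0.56. CDK14 rose in E47 by 1.57 ± 0.31 (2.97-fold, adjusted p = 0.0064), and had 0.74 ± 0.34 in Snail (adjusted p = 0.0711) and 0.21 ± 0.49 in Slug (adjusted p = 0.505). The Snail value passed without the E47 1 Cy3 array (adjusted p = 0.0423).

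CDK2, the kinase of S-phase entry, had 1.28, 1.14, 1.05 and -0.53 on the Slug arrays, so 1 array, Slug 2 Cy3, lay on the other side of 0 from the rest. It rose by 0.74 ± 0.67 (1.66-fold, adjusted p = 0.0382), with 1.21 in sample 1 and 0.26 in sample 2. Without that array the mean was 1.13 (adjusted p = 0.0014), and with scaled arrays 0.61 and not called (adjusted p = 0.0802). CDK18, a PCTAIRE kinase, showed the same shape with 0.70, 0.90, 0.49 and -0.37; its mean of 0.43 ± 0.52 was not called (adjusted p = 0.130) and was 0.64 without the array (adjusted p = 0.0171). CDK16, another PCTAIRE kinase, had 0.31, 0.44, 0.36 and 0.62 in Slug and rose by 0.43 ± 0.08 (1.35-fold, adjusted p = 0.0369). Its 3 clones disagreed, with Slug means of 1.239, 0.338 and -0.284, and the median over its probes was not called. The CDK16 call was also lost without the E47 1 Cy3 array (adjusted p = 0.0604), without the Slug 2 Cy3 array (0.36, adjusted p = 0.0728) and with scaled arrays (0.36, adjusted p = 0.0957).

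CDK7, the kinase that CCNH pairs with, had -1.15, -1.17, -0.83 and 0.30 in Slug, again with Slug 2 Cy3 on the other side. Its Slug mean of -0.71 ± 0.63 was not called (adjusted p = 0.0514) and was -0.99 without that array (adjusted p = 0.0052). It also passed without the E47 1 Cy3 array (adjusted p = 0.0305). It lay below 0 on all 4 Snail arrays (-0.91, -0.90, -0.37 and -0.40) and all 4 E47 arrays (-0.39, -0.51, -0.47 and -0.32), with means of -0.64 ± 0.37 and -0.42 ± 0.04 that were not called (adjusted p = 0.115 and 0.336), and both of its clones were below 0 in every transfectant. CDK4, a G1 kinase that works with D-type cyclins, had -0.89, -0.28, -0.44 and -0.62 in Snail and a mean of -0.56 ± 0.04 (adjusted p = 0.0820). CDK6, its sister kinase, followed CDK14 as the next highest CDK-named gene in E47, with 0.43 ± 0.15 (adjusted p = 0.103). CDK1, the mitotic kinase, had 0.09 ± 0.03 in Snail, -0.33 ± 0.28 in Slug and -0.31 ± 0.01 in E47, none of them called; without the Slug 2 Cy3 array the Slug mean was -0.55 (adjusted p = 0.0166).

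CDK2AP2, whose name stands for a CDK2-associated protein and which is no kinase, was the CDK-named call in Snail. It had -0.84, -0.42, -0.84 and -0.55 there and fell by 0.66 ± 0.05 on the log2 scale (1.58-fold, adjusted p = 0.0272), and it had -0.09 in Slug and -0.13 in E47. CDK13 was read by 2 clones on opposite sides of 0 in Slug, at 0.509 and -0.124, and CDK5RAP2, a centrosome protein, by 2 clones on opposite sides in E47, at -0.36 and 0.244; these clones are named after their values were seen. CDK5 was tested in Snail (0.04) and Slug (-0.07) only, since 1 of its E47 arrays was empty.

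None of the CDK inhibitors was called by limma, 0 of 5 in Snail, 0 of 5 in Slug and 0 of 6 in E47, with 2, 2 and 0 at an unadjusted p under 0.05. CDKN1B, which encodes p27, had -0.31, -0.38, -0.50 and -0.21 in Snail, where it was the lowest of the family (-0.35 ± 0.01, adjusted p = 0.148). In Slug it had 0.31, 0.29, 0.20 and -0.31, the last on the Slug 2 Cy3 array. CDKN1C, which encodes p57, was the lowest in Slug at -0.36 ± 0.03 (adjusted p = 0.0750; -0.59 and adjusted p = 0.0327 without the Slug 2 Cy3 array) and in E47 at -0.15 ± 0.14 (adjusted p = 0.587). CDKN3, the phosphatase, was the highest in Snail (0.32 ± 0.03, adjusted p = 0.160) and Slug (0.36 ± 0.08, adjusted p = 0.0692). CDKN2A and CDKN2D, inhibitors of CDK4 and CDK6, had means between -0.03 and 0.18 in all transfectants. CDKN2B lacked an array in Snail and in Slug and had -0.05 in E47.

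CDC25B, a phosphatase that switches CDKs on at entry to mitosis, separated Slug from Snail. It had 0.63, 0.85, 0.64 and 0.90 on the Slug arrays and -0.25, -0.51, -0.34 and -0.20 on the Snail arrays, with no overlap. It rose in Slug by 0.75 ± 0.02 (1.69-fold, adjusted p = 0.0104), with its 2 clones at 1.161 and 0.347; with scaled arrays it was 0.63 and missed the threshold (adjusted p = 0.0524). It had -0.33 ± 0.08 in Snail (adjusted p = 0.217). In E47 it had 0.79, -0.15, 0.89 and 0.75, with a mean of 0.57 ± 0.35 (adjusted p = 0.0662) that was 0.81 and passed without the E47 1 Cy3 array (adjusted p = 0.0048). CDC25C, its relative, lay below 0 on all 4 Slug arrays (-0.55, -0.61, -0.24 and -0.44) with a mean of -0.46 ± 0.17 that was not called (adjusted p = 0.0931).

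Among MCM3, MCM5, CDC6 and CDC7, which license and fire replication origins, MCM5 fell and CDC7 rose in Snail, and none was called in Slug or E47 by limma (2 at an unadjusted p under 0.05 in each). MCM5, a subunit of the replicative helicase, had -0.50, -0.83, -1.26 and -1.19 on the Snail arrays, -0.33, -0.23, -0.48 and -0.45 in E47 and 0.20, -0.07, -0.29 and -0.02 in Slug. The Snail arrays lay below the others. MCM5 fell in Snail by 0.95 ± 0.40 on the log2 scale (1.93-fold, adjusted p = 0.0122), with -0.67 in sample 1 and -1.23 in sample 2. MCM3, the other helicase subunit on the array, had 0.08 ± 0.36 in Snail and 0.33 ± 0.02 in Slug (adjusted p = 0.796 and 0.142).

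CDC7, the kinase that fires the loaded helicase, had 0.54, 0.29, 0.70 and 0.93 in Snail, -0.36, -0.49, -0.08 and -0.41 in Slug and 0.16, -0.03, 0.37 and 0.12 in E47. It was above 0 on all Snail arrays and below 0 on all Slug arrays. CDC7 rose in Snail by 0.61 ± 0.28 (1.53-fold, adjusted p = 0.0413), opposite in direction to MCM5 in the same cells. Its Slug mean of -0.33 ± 0.13 was not called (adjusted p = 0.132). The Snail call was lost without the Slug 2 Cy3 array (adjusted p = 0.0628). CDC6, which loads the helicase, had means of -0.29 ± 0.11, -0.31 ± 0.03 and -0.27 ± 0.07 in Snail, Slug and E47, none of them called.

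In the sliding clamp and its loader, RFC5 alone was called. RFC5 had -0.82, -0.21, -0.75 and -0.32 in Snail, where the arrays titled Cy5 were the lower ones in both samples, and fell by 0.52 ± 0.01 on the log2 scale (1.44-fold, adjusted p = 0.0414). In E47 it had 0.83, -0.14, 0.38 and 0.25, with a mean of 0.33 ± 0.02 (adjusted p = 0.173). The Snail call was lost without the E47 1 Cy3 array (adjusted p = 0.0814). PCNA, the clamp itself, had 0.36 ± 0.32 in Snail, 0.09 ± 0.13 in Slug and 0.28 ± 0.07 in E47, above 0 on 4, 3 and 4 of 4 arrays and not called. RFC2 was the lowest of this group in Slug at -0.47 ± 0.09 (adjusted p = 0.0563; -0.64 and adjusted p = 0.0378 without the Slug 2 Cy3 array). RFC4, read by 2 clones, had -0.402 and 0.202 for them in Snail.

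**Figure D2:**
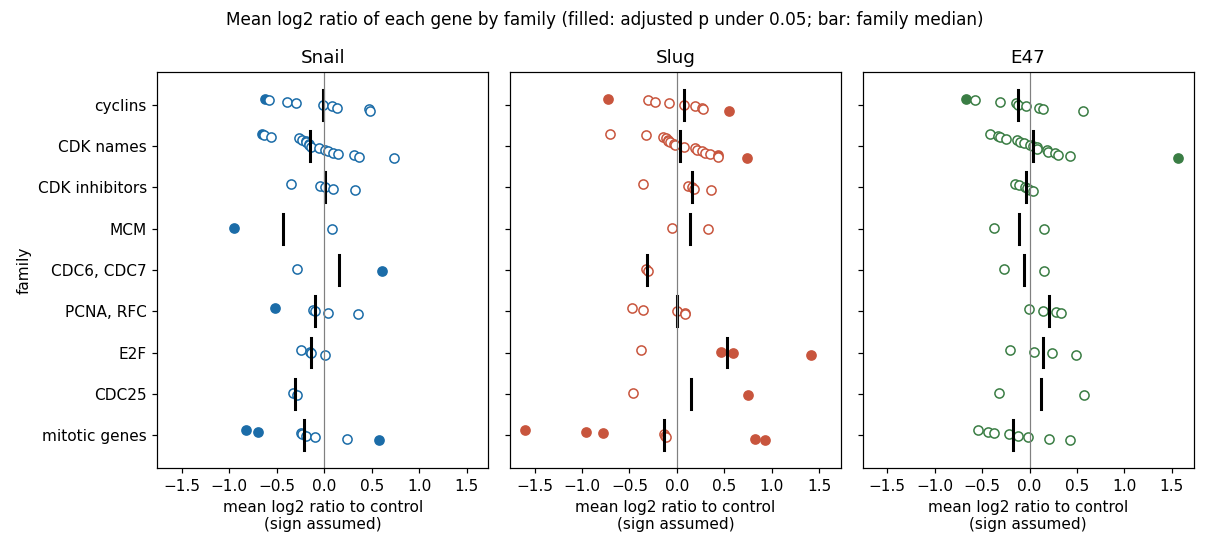
Mean log2 ratio to the control (horizontal axis, sign assumed) of each gene tested, by family (vertical axis) and transfectant (panels); filled points have an adjusted p under 0.05 and black bars are family medians. The E2F median of 0.52 in Slug stands to the right of 0, and the mitotic genes spread from -1.60 to 0.93 in Slug.

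Of 8 mitotic genes, 3 were called in Snail, 5 in Slug and 0 in E47 by limma (3 at an unadjusted p under 0.05), in both directions in Snail and in Slug. Among all genes tested 7.22%, 21.8% and 5.3% were called. BUB1, a kinase of the spindle checkpoint, had -1.96, -1.64, -1.32 and -1.47 on the Slug arrays, -0.26, -0.07, -0.21 and -0.42 in Snail and 0.03, -0.26, -0.63 and -0.61 in E47. The Slug arrays lay far below all others. BUB1 fell in Slug by 1.60 ± 0.29 on the log2 scale (3.03-fold, adjusted p = 0.0011), the lowest mean of any of these genes. BUB1B, which encodes the checkpoint protein BUBR1, had 0.73, 0.41, 0.74 and 0.45 in Snail and rose by 0.58 ± 0.02 (1.50-fold, adjusted p = 0.0380), while its Slug mean was -0.13 ± 0.26 (adjusted p = 0.530). That call was lost without the Slug 2 Cy3 array (adjusted p = 0.0502).

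MAD2L1, the MAD2 protein that holds back the anaphase-promoting complex, lay below 0 on all 12 arrays. It had -0.88, -1.56, -0.48 and -0.91 in Slug, -0.85, -0.72, -0.70 and -0.55 in Snail and -0.71, -0.41, -0.59 and -0.46 in E47. It fell by 0.96 ± 0.37 in Slug (1.94-fold, adjusted p = 0.0046) and by 0.70 ± 0.11 in Snail (1.63-fold, adjusted p = 0.0309), both on the log2 scale. The E47 mean of -0.54 ± 0.02 missed the threshold (adjusted p = 0.0841) and passed without the E47 1 Cy3 array (-0.62, adjusted p = 0.0382). The Snail call was lost without the Slug 2 Cy3 array (adjusted p = 0.0632). MAD2L2, a relative that serves translesion DNA synthesis as well, had -0.58, -0.72, -1.26 and -0.70 in Snail and -0.28, -1.21, -1.06 and -0.57 in Slug, and fell by 0.82 ± 0.23 (1.76-fold, adjusted p = 0.0126) and by 0.78 ± 0.05 (1.72-fold, adjusted p = 0.0079). In E47 it had -0.23, -0.33, 0.05 and 0.01, above all Snail arrays and above 3 of the 4 Slug arrays.

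PLK1, the polo kinase that drives mitotic entry, had 0.84, 1.03, 1.03 and 0.83 on the Slug arrays, between -0.30 and 0.04 on the Snail arrays and 0.71, -0.01, 0.68 and 0.34 in E47. It rose in Slug by 0.93 ± 0.00 (1.91-fold, adjusted p = 0.0028), with both samples at 0.93. The E47 mean of 0.43 ± 0.11 (adjusted p = 0.0968) was 0.61 without the E47 1 Cy3 array (adjusted p = 0.0272). AURKC, an aurora kinase known from germ cells, had 0.60, 1.25, 1.04 and 0.39 in Slug and rose by 0.82 ± 0.15 (1.76-fold, adjusted p = 0.0061). AURKA, the aurora kinase of the spindle poles, had -0.19 ± 0.04, -0.12 ± 0.31 and -0.22 ± 0.14 and was not called. PLK3, a stress-linked polo kinase, had the lowest of its own 3 means in E47, at -0.44 ± 0.16 (adjusted p = 0.236).

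**Figure D3:**
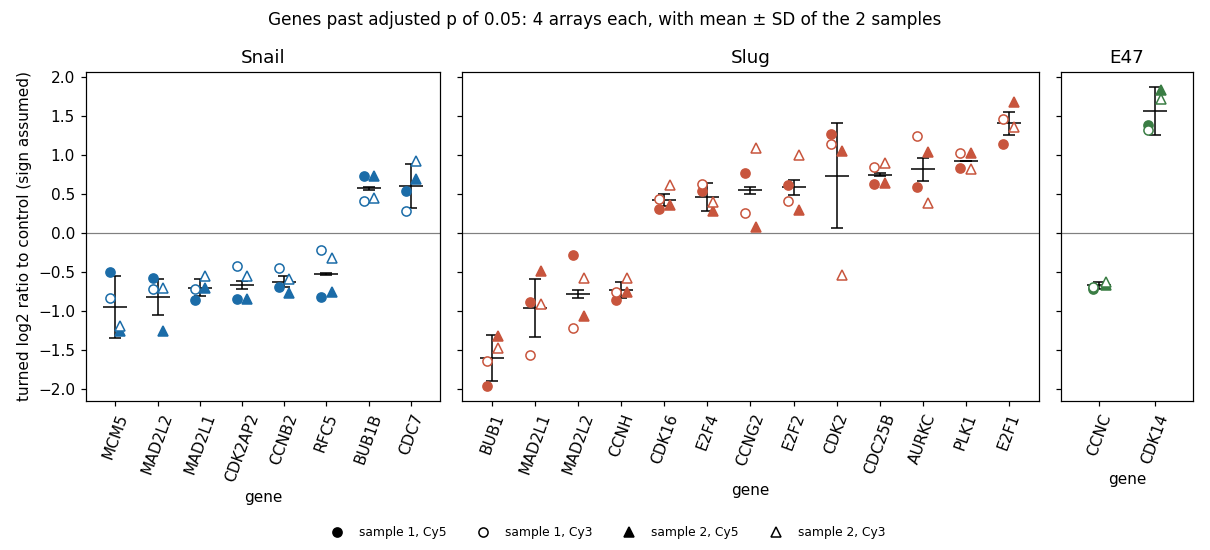
Log2 ratio to the control (vertical axis, sign assumed) on the 4 arrays of each called gene (horizontal axis), with circles for sample 1, triangles for sample 2, filled for titled Cy5 and open for titled Cy3, and the mean ± SD of the 2 samples. CDK2 in Slug has 3 arrays above 1 and 1 at -0.53, while the 4 PLK1 arrays lie between 0.83 and 1.03.

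Textbook phase lists were read next. Of 11 genes of G1 and S on the array, 1 rose (CDC7) and 2 fell (MCM5, RFC5) in Snail, 2 rose (E2F1, E2F2) in Slug, and 0 of 10 were called in E47 by limma (4 at an unadjusted p under 0.05), with medians of -0.10, 0.00 and 0.15. Of 10 genes of G2 and M, 1 rose (BUB1B) and 2 fell (CCNB2, MAD2L1) in Snail. In Slug 2 of these rose (CDC25B, PLK1) and 2 fell (BUB1, MAD2L1), and in E47 0 were called (4 at an unadjusted p under 0.05), with medians of -0.22, -0.12 and -0.13. The shares called in Snail, Slug and E47 were 27.3%, 18.2% and 0% for G1 and S. They were 30%, 40% and 0% for G2 and M, beside 7.22%, 21.8% and 5.3% of all genes tested.

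Genes outside the families were read in 3 lists. Beside all 3 lists, 2.15% of all genes rose and 5.07% fell in Snail, 12.2% and 9.62% in Slug, and 3.81% and 1.49% in E47. Of 19 DNA synthesis genes, 2 fell in Snail (RRM2 by 0.62 and TOP1 by 0.78 on the log2 scale), 2 rose and 3 fell in Slug, and 0 were called in E47 by limma (3 at an unadjusted p under 0.05). The 3 that fell in Slug were the primase subunits PRIM1 (-0.89) and PRIM2 (-1.20) and the single-strand binding protein RPA2 (-0.50); the 2 that rose were RRM1, a subunit of ribonucleotide reductase (0.73), and the ligase LIG1 (0.43). Of 20 genes of mitosis and the anaphase-promoting complex on the array, 1 of 16 tested rose in Snail (CKS2, 0.73), 2 of 17 rose and 5 fell in Slug, and 1 of 17 rose in E47 (STMN1, a microtubule regulator, 1.39). In Slug the spindle motor KIF11 fell by 1.15 and HMMR by 0.94, and BIRC5, which encodes survivin, rose by 0.54.

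Of 30 genes of RB, p53 and checkpoint control, 0 rose and 4 of 28 tested fell in Snail, 6 of 30 rose and 1 fell in Slug, and 2 of 29 rose in E47. CCND1, the cyclin D1 gene, fell by 0.80 in Snail (adjusted p = 0.0088) and rose by 0.69 in Slug (adjusted p = 0.0073) and 0.73 in E47 (adjusted p = 0.0157). SFN, which encodes 14-3-3 sigma, rose in Slug by 1.04 (adjusted p = 0.0021) and in E47 by 0.80 (adjusted p = 0.0138) and had -0.37 in Snail. CDKN1A, which encodes the inhibitor p21, rose by 2.35 in Slug (adjusted p = 0.0060) and had 0.15 in Snail and 0.70 in E47 (adjusted p = 0.853 and 0.376). Its E47 arrays were 0.75, -1.42, 1.67 and 1.81, with -1.42 on the E47 1 Cy3 array. The SD of the E47 samples was 1.47, so the E47 mean says little.

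Transfectants were also tested against each other, as differences of their ratios to the control; the control cancels in these where its RNA was the same on both sides, which the sources used here do not state. Snail and Slug differed in 9 of 55 genes, 3 higher and 6 lower in Snail, where 13.2% of all genes were called, 4.08% higher and 9.14% lower. The largest difference was E2F1, lower in Snail by 1.40 (95% interval -1.84 to -0.96, adjusted p = 0.0075). CDC25B differed by -1.08 (-1.56 to -0.61, adjusted p = 0.0179), PLK1 by -1.03 (-1.44 to -0.62, adjusted p = 0.0135), MCM5 by -0.90 (-1.42 to -0.38, adjusted p = 0.0384), CCNB2 by -0.88 (-1.28 to -0.49, adjusted p = 0.0184) and E2F2 by -0.73 (-1.12 to -0.35, adjusted p = 0.0293). Higher in Snail were BUB1 by 1.36 (0.82 to 1.90, adjusted p = 0.0134), CDC7 by 0.95 (0.48 to 1.41, adjusted p = 0.0244) and BUB1B by 0.71 (0.28 to 1.14, adjusted p = 0.0436). MAD2L1 and MAD2L2 were called in neither direction, with differences of 0.26 and -0.04; the interval for MAD2L2 ran from -0.49 to 0.42, which leaves room for a difference of either sign. Without the Slug 2 Cy3 array E2F2, MCM5 and BUB1B missed the threshold (adjusted p = 0.0831, 0.0613 and 0.0529), while CDK2 (-1.37, adjusted p = 0.0066), CDK18 (-0.83, adjusted p = 0.0370), AURKC (-0.74, adjusted p = 0.0472) and CDK1 (0.64, adjusted p = 0.0492) passed it. Without the E47 1 Cy3 array BUB1B missed it (adjusted p = 0.0553). The 9 calls became 3 without Snail sample 1, 2 without Snail sample 2, 3 without Slug sample 1 and 6 without either E47 sample. With the sign of 1 of the pair turned, 14 genes were called, 5 and 9 to the 2 sides, beside 18.3% of all genes.

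**Figure D4:**
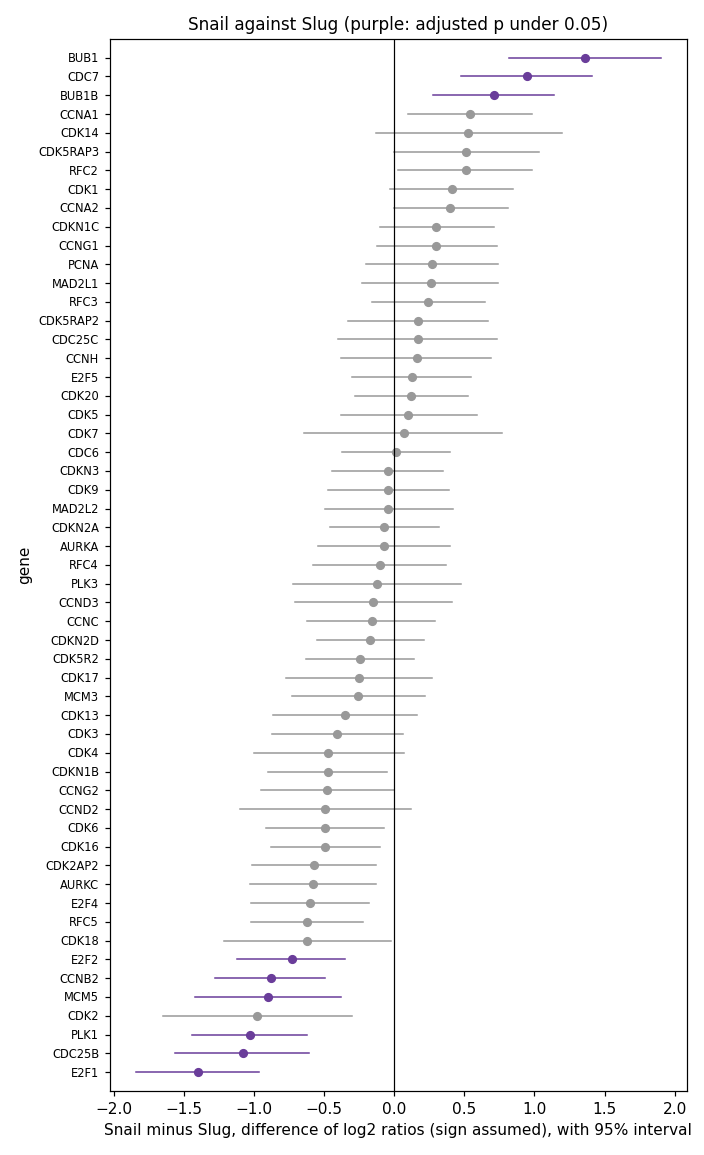
Difference of log2 ratios, Snail minus Slug (horizontal axis, sign assumed), with its 95% interval, for each of 55 genes (vertical axis, ordered by the difference); purple marks an adjusted p under 0.05. The order runs from BUB1 at 1.36 to E2F1 at -1.40, and CDK2 at -0.98 has a wide interval and is not called.

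Snail and E47 differed in 1 of 53 genes, RFC5, lower in Snail by 0.86 (-1.25 to -0.46, adjusted p = 0.0478), where 2.57% of all genes were called. CDC25B came next, lower by 0.90 (-1.37 to -0.42, adjusted p = 0.0622), and passed without the E47 1 Cy3 array (-1.13, adjusted p = 0.0120). RFC5 missed the threshold without the Slug 2 Cy3 array (adjusted p = 0.0540) and without any 1 of the Snail and E47 samples. Slug and E47 differed in 0 of 53 genes by limma, where 0.786% of all genes were called; 9 genes had an unadjusted p under 0.05, and 3 (BUB1, CDK14, E2F1) were called when the 12 arrays were fitted with sample as a random block. With a correlation of 0.02 between the arrays of a sample, that fit counts the dye swaps almost as separate replicates. The differences were -1.23 for BUB1 (-1.77 to -0.69, adjusted p = 0.0666), -1.36 for CDK14 (-2.03 to -0.70, adjusted p = 0.0918) and 0.93 for E2F1 (0.48 to 1.37, adjusted p = 0.0900). Without the E47 1 Cy3 array BUB1 and CDK14 passed (adjusted p = 0.0263 and 0.0278). With the sign of 1 of the pair turned, 8 genes differed between Snail and E47 and 22 between Slug and E47. Of all genes, 9.87% and 25.8% then differed.

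**Figure D5:**
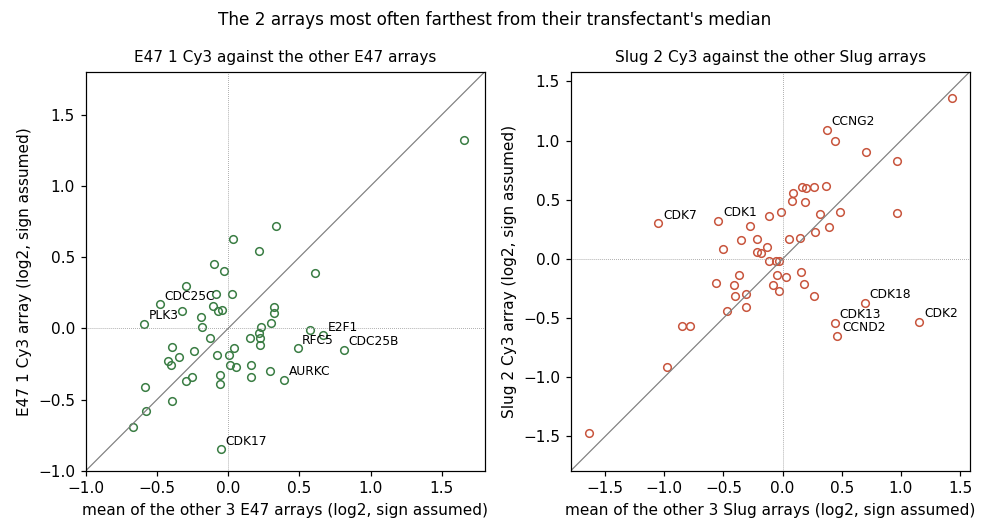
Log2 ratio of each gene on the E47 1 array titled Cy3 (left) and the Slug 2 array titled Cy3 (right; vertical axes) against its mean over the other 3 arrays of that transfectant (horizontal axes), with the line of equality; genes far from the line are named. CDC25B lies at -0.15 on the E47 1 Cy3 array, and CDK2 at -0.53 and CDK7 at 0.30 on the Slug 2 Cy3 array, on the other side of 0 from the mean of the other arrays.

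The number of E47 calls changed when 1 array was left out. It also moved from 2 with that array kept. It was 5 with all arrays scaled to 1 spread, 4 with probes present on all 12 arrays and 1 with the median over probes. On the E47 1 Cy3 array E2F1, PLK1, CDC25B and RFC5 stood at -0.05, -0.01, -0.15 and -0.14, where the other 3 E47 arrays ran from 0.25 to 0.89. Without it 7 E47 genes were called in place of 2, 5 higher and 2 lower, while 8.95% of all genes were called. This array was picked for lying farthest on the cell cycle genes, so calls gained without it are no support for a change. Those gained were CCNG2, CDC25B, E2F1, PLK1 and MAD2L1. The Slug means of these genes, from the comparison with the same control, were 0.55, 0.75, 1.41, 0.93 and -0.96. Without the Slug 2 Cy3 array 14 Slug genes were called, 6 higher and 8 lower, while 22.9% of all genes were called. CCNG2, CDK16, E2F2 and E2F4 left, and CDK1, CDK7, CDK18, CDKN1C and RFC2 joined.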

How the data were processed

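The deposited table gives, per the file headers and labels, 1 value per probe for each of 12 arrays, and no scanner files were used. Raised to the power of 2, values below -0.5 were whole thousandths within 6e-05 on every array (100.0%, against at most 5.48% for natural logs), so the authors' deposited values were taken as log2 ratios; array medians lay between -0.0634 and 0.0594. The sources used here do not give the background correction, the normalisation or what left some cells empty, and signal over background is not part of the values, so the number of arrays limits the precision.

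Probes with 1 symbol (8047; 276 with several were left out) were named from the platform annotation. Turned values were averaged over spots of a clone, clones of a gene and the 2 arrays of a numbered sample, both being required; CDKN2B in Snail and Slug and CDK5 and RFC2 in E47 were therefore not tested. limma 3.58.1 in R 4.3.3 fitted the 3 transfectants together without an intercept (3 residual and 4.85 prior degrees of freedom, prior SD 0.203), testing each against 0 and each pair, two-sided, with Benjamini-Hochberg adjustment over all genes tested; the script was tested on simulated data. A test against 0 leaves out the control's own spread, and whether the control RNA was 1 pool is not given in the sources used here. Duplicate spots of these genes differed by a median of 0.263 on the log2 scale. Numbered samples were not treated as pairs across transfectants, since the labels do not say that a number marks a shared batch. Across genes, sample 1 minus sample 2 correlated at 0.02 for Snail with Slug and -0.07 for Slug with E47. For Snail with E47 the correlation was 0.23.

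The genes and lists were chosen with earlier results of these data known. Every gene past the threshold, the highest and lowest of each family, genes whose clones lay beyond 0.5 on each side of 0 (there were none), and genes outside the families called in 2 or more comparisons with the control were to be named; others, such as CDK1, CDK4, CDK6, CDK18, AURKA and the remaining genes outside the families, were named after their values were seen. Promoter motifs were not analysed here. Alternatives covered centring, scaling, averaging, missing values, dye, sign, blocks and left-out samples, and, added after seeing the data, each of 2 left-out arrays.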

Additional observations from a re-analysis of the deposited data

Results flagged for a closer look

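Among the 4 arrays of a transfectant, 1 array lay far from the rest for 11 of 164 gene and transfectant pairs tested (6.71%, where chance gives about 5%). On the E47 1 Cy3 array these were CCNA1 (-0.39), CDC25B (-0.15) and E2F5 (0.12), and on the E47 1 Cy5 array CDK13 (0.59) and CDK2AP2 (-0.50). On the Slug 2 Cy3 array they were CDK2 (-0.53), CDK5R2 (-0.21) and CDKN1B (-0.31). In Snail they were CDK5RAP2 on Snail 1 Cy3 (0.46), RFC3 on Snail 1 Cy5 (0.12) and E2F5 on Snail 2 Cy3 (0.06). Of the 3 on the Slug 2 Cy3 array, CDK2 is a called gene.

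The difference between transfectants passed the limma test (adjusted p under 0.05) for 10 pairs of gene and comparison. For Snail minus Slug the differences were 1.36 for BUB1, 0.95 for CDC7, 0.71 for BUB1B, -0.73 for E2F2, -0.88 for CCNB2, -0.90 for MCM5, -1.03 for PLK1, -1.08 for CDC25B and -1.40 for E2F1. For Snail minus E47 the difference was -0.86 for RFC5.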

How the results depend on the processing

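All 33 calls kept their direction in the 18 alternatives that did not change the signs, and 4 also stayed past the threshold in all of them (E2F1, PLK1 and BUB1 in Slug, and E2F1 between Snail and Slug). Counts are given in the order Snail, Slug, E47, Snail against Slug, Snail against E47 and Slug against E47, and were 8, 13, 2, 9, 1 and 0. They were 15, 18, 8, 14, 6 and 3 with 12 arrays and sample as a random block (correlation of arrays of a sample 0.02, so dye swaps count almost as separate replicates), 9, 7, 5, 8, 1 and 0 with all arrays scaled to 1 spread, 1, 5, 1, 2, 0 and 0 with arrays titled Cy3 only, and 5, 9, 3, 6, 1 and 0 with arrays titled Cy5 only. They were 9, 13, 4, 11, 2 and 2 with probes present on all 12 arrays, 8, 12, 1, 9, 1 and 0 with the median over probes, 8, 15, 2, 9, 0 and 0 with each array centred, and 8, 13, 2, 8, 0 and 0 with 1 array enough for a sample. Without the E47 1 Cy3 array they were 8, 12, 7, 8, 2 and 2, and without the Slug 2 Cy3 array 5, 14, 2, 10, 0 and 0. The replicate block gave 8, 14, 2, 9, 0 and 1. Whether a number marks a shared batch is not given in the sources used here. Robust empirical Bayes changed no count. With the sign of 1 transfectant turned, the pairwise counts were 14, 8 and 22, beside 18.3%, 9.87% and 25.8% of all genes. Leaving out 1 sample at a time gave 0 to 10, 3 to 12, 0 to 3, 2 to 9, 0 to 1 and 0 to 0; a lone sample is then assumed to vary like the other groups. Counts over all genes moved too, from 34 to 562 in Snail, 325 to 1182 in Slug and 26 to 435 in E47. The causes were not tested.

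With signs by the labelled dyes, limma called 0 genes in all 6 comparisons, of the cell cycle genes (0, 2, 6, 1, 2 and 2 at an unadjusted p under 0.05) and of all genes. Means that changed side were then 0.01 for MAD2L1, 0.18 for MAD2L2 and 0.10 for MCM5 in Snail; 0.12 for BUB1, -0.38 for CCNG2, -0.01 for CDC25B, -0.04 for CDK16, -0.22 for E2F2 and -0.01 for E2F4 in Slug; 0.31 for CCNC and -0.88 for CDK14 in E47; and, for Snail minus Slug, -0.22 for BUB1, 0.11 for CDC25B, 0.04 for E2F1, 0.36 for E2F2 and 0.24 for MCM5. With 2 samples a group and no scanner signal in the values, dim spots could not be told from bright ones.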

Other observations

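CDK7 and CCNH belong to TFIIH, the factor that opens promoters and repairs DNA and whose kinase module also activates CDKs. The other genes of TFIIH were looked up after the values of these 2 were seen, so their values are given as a description. MNAT1, the assembly factor of the kinase module, fell by 0.54 in Slug on the log2 scale (limma, adjusted p = 0.0312) and had -0.09 in Snail and -0.53 in E47 (adjusted p = 0.749 and 0.0802). GTF2H3, a core subunit, fell by 1.14 in Slug (adjusted p = 0.0028) and had -0.30 in Snail and -0.63 in E47 (adjusted p = 0.277 and 0.0546). The other core genes were not called: GTF2H1 had -0.24, -0.36 and 0.03 in Snail, Slug and E47, GTF2H2 had -0.45, 0.00 and 0.26, and GTF2H4 had -0.01, 0.04 and 0.07. The helicase genes ERCC2 (0.15, -0.08 and -0.05) and ERCC3 (-0.31, -0.41 and -0.23) were not called either. Of the 9 TFIIH genes with values, 3 fell in Slug (CCNH, MNAT1 and GTF2H3). CCNH was among the genes that prompted the look-up, so this count cannot be read against the 9.62% of all genes that fell. The 3 comparisons share the control.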
